A study of Mus musculus with 2 samples.

Results

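The miR-17-92 polycistron is a group of microRNA hairpins that are cut from a single long non-coding transcript, Mir17hg. The description here covers its 6 hairpins, Mir17, Mir18, Mir19a, Mir20a, Mir19b-1 and Mir92-1, in mouse C2C12 cells. They were taken by name, from the annotated content of the transcript and not from their counts, and are 6 of the 2202 miRNA genes in the count tables. The libraries hold RNA under 30 nucleotides from C2C12, a myoblast line derived from injured thigh muscle of C3H mice. The single group has 2 biological replicates, and no treatment, time, passage or culture stage is named for either. Both are from the same cell line, so replicate error here is the spread between preparations of 1 line, and with 2 values a side no exact permutation test can go below p = 0.333.

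Replicate 1 had 27661907 and replicate 2 had 15025315 reads on the strand of a miRNA gene, which were 50.3% and 61.2% of all reads. A further 33.4% and 22.8% of all reads fitted more than 1 place. Mir21a alone took 23.1% of the gene counts in replicate 1 and 53.5% in replicate 2, which lowers every other gene's share of the total. Mir206, a miRNA specific to skeletal muscle, stood at 2559 and 1028 gene-strand counts per 1000000 gene-strand counts (CPM). The list of 8 muscle genes summed to 2652 and 1050 CPM, most of it Mir206, and 3 of the 8 reached 1 CPM in both libraries. Mir133b had 88.0 and 20.4 CPM. That was below Mir142 of the blood list, at 215 and 122, and the endothelial marker Mir126a, at 213 and 134. Another 3 of the 8 muscle genes, Mir1a-1, Mir133a-1 and Mir133a-2, were at 0. The zeros are at genes that have closely similar copies. The lists of blood, endothelial, epithelial, liver, neural and pluripotent cell markers summed to between 0.398 and 220 CPM in replicate 1 and between 0.466 and 134 CPM in replicate 2. In the neural list 5 of 7 genes were at 0, namely Mir9-1, Mir9-2, Mir124a-1, Mir124a-2 and Mir124a-3. They too have closely similar copies, so the neural sum has the same limit.

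A primary miRNA transcript is cut in the nucleus by Drosha and DGCR8, which release each hairpin, and Dicer then cuts the hairpin to a duplex of which 1 strand is loaded into an Argonaute protein. Targets are chosen mainly through the seed, bases 2 to 8 of the mature miRNA, so hairpins with the same seed share most of their targets. The Mir17hg transcript is induced by Myc and E2F factors and is known for promoting cell cycle entry and survival in proliferating cells and tumours. Its miR-17 seed group represses the cell cycle inhibitor Cdkn1a and the pro-apoptotic Bcl2l11, and miR-18a and miR-92a have been tied to repression of anti-angiogenic and integrin genes.

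The 6 hairpins carry 4 different seeds. The sequences below, from RefSeq on GRCm38.p6, are the mature strands used to assign each hairpin to a seed group, written 5′ to 3′ with the seed in capitals, because the seed grouping is what the levels are compared over. All 6 hairpins matched RefSeq with the same coordinates and sequence as in GENCODE M21.
miR-17-5p of Mir17: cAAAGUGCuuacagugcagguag
miR-20a-5p of Mir20a: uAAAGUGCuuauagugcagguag
miR-18a-5p of Mir18: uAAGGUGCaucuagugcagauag
miR-19a-3p of Mir19a: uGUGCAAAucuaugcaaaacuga
miR-19b-3p of Mir19b-1: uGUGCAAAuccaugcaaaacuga
miR-92a-3p of Mir92-1: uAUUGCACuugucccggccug

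Counted from the 5′ end, miR-20a differs from miR-17 by C1U and C12U, both outside the seed. The strand of Mir18 differs from that of Mir17 at 6 positions, 1 of which, A4G, lies in the seed and puts it in a group of its own. The 2 hairpins of the miR-19 group differ by a single substitution, U11C. No mature strand of Mir17, Mir18, Mir19a or Mir20a occurs in another annotated hairpin. The strands of Mir19b-1 and Mir92-1 do, each in 1 further hairpin on chromosome X.

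On mm10 the hairpins lie within 836 bases of chromosome 14 on the plus strand, at chr14:115043671-115044506, and all fall in exon 2 of Mir17hg (chr14:115042879-115046727), a long non-coding RNA gene with 2 annotated exons. In transcript order they are Mir17 (chr14:115043671-115043754), Mir18 (chr14:115043851-115043946), Mir19a (chr14:115044000-115044081), Mir20a (chr14:115044157-115044263), Mir19b-1 (chr14:115044305-115044391) and Mir92-1 (chr14:115044427-115044506). The gaps between neighbours run from 35 bases, before Mir92-1, to 96 bases, after Mir17. No other annotated gene overlaps them, and no read was counted on the opposite strand of any of the 6 in either library, which allows up to 3 reads for each.

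Although they share 1 transcript, the hairpins were recovered at levels that lay up to 780-fold apart within a library. Levels are in CPM, not divided by hairpin length, since each read is a whole short RNA and not a fragment of the hairpin. Each hairpin has a single count for both of its arms. Mir17, the first hairpin and the founder of the group, stood at 17903 CPM in replicate 1 and 10609 in replicate 2, with a mean of 14256 ± 5157 (SD, n = 2). Mir20a, which shares its seed, stood at 12019 and 5278 CPM, a mean of 8649 ± 4767 (SD, n = 2). Both were among the 22 most abundant of all 2202 genes in each library, with ranks of 11 and 9 for Mir17 and 19 and 22 for Mir20a.

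Mir92-1, the last hairpin, had 3962 CPM in replicate 1 and 2129 in replicate 2, with a mean of 3046 ± 1296 (SD, n = 2). Mir18, whose processing from the primary transcript is known to need the RNA-binding protein hnRNP A1, had 2419 and 2052 CPM, a mean of 2236 ± 259 (SD, n = 2). These hairpins formed a middle level in both libraries, below Mir20a and far above the miR-19 group.

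The miR-19 hairpins stood far below the other 4, though still detected in both libraries. Of 777 genes with a read in replicate 1 and 690 in replicate 2, Mir19a ranked 183 and 184 and Mir19b-1 ranked 192 and 181. Mir19a had 774 reads in replicate 1 and 228 in replicate 2, or 28.0 and 15.2 CPM, a mean of 21.6 ± 9.06 (SD, n = 2). Mir19b-1 had 635 and 246 reads, or 23.0 and 16.4 CPM, a mean of 19.7 ± 4.66 (SD, n = 2). The values of the 2 miR-19 hairpins overlapped.

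**Figure D1:**
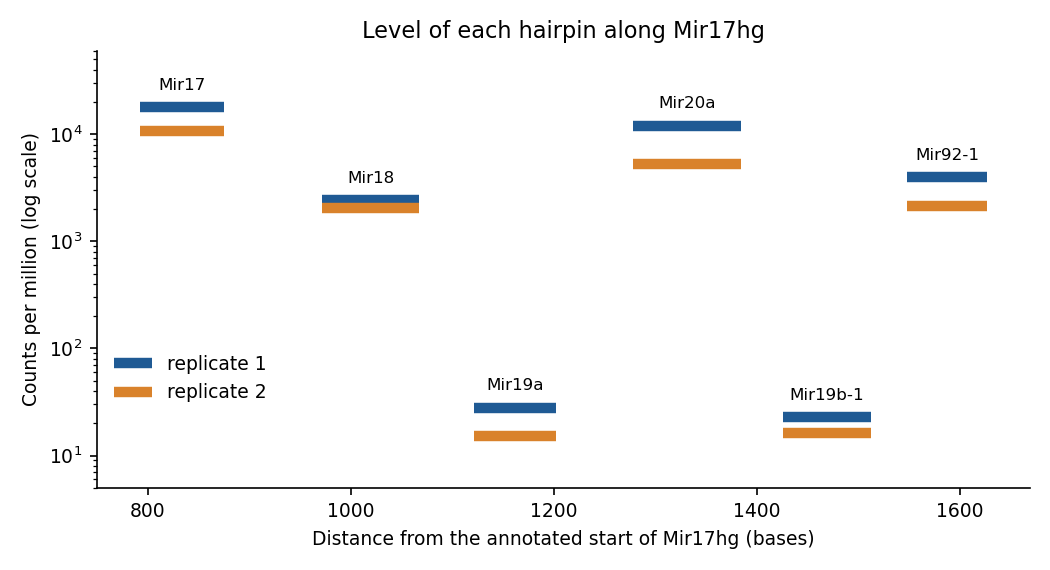
Level of each hairpin in CPM (log scale) against the distance in bases from the annotated start of Mir17hg. Each bar spans a hairpin and is drawn once per replicate. Mir19a and Mir19b-1 lie between 15.2 and 28.0 CPM, while the lowest of the other hairpins, Mir18 in replicate 2, lies at 2052.

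Along the transcript the level fell and rose between neighbours, as the plot of level by position shows. Within a library these ratios do not depend on library size or on Mir21a. From Mir17 to Mir18 the level was 7.40-fold lower in replicate 1 and 5.17-fold lower in replicate 2, and from Mir18 to Mir19a it was 86.5-fold and 135-fold lower. From Mir19a to Mir20a, which follows 75 bases downstream, it was 430-fold and 348-fold higher. The sequence of steps then repeated, with Mir19b-1 524-fold and 322-fold below Mir20a and Mir92-1 173-fold and 130.0-fold above Mir19b-1. All 5 steps had the same direction in both libraries, and each mean log2 step was larger than the gap between its values in the 2 libraries.

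Ordered by mean level, the hairpins ran Mir17, Mir20a, Mir92-1, Mir18, Mir19a and Mir19b-1. Mir17 exceeded Mir20a by 1.49-fold and 2.01-fold, and Mir20a exceeded Mir92-1 by 3.03-fold and 2.48-fold, both beyond the spread between the libraries. Mir92-1 and Mir18 were not separated beyond that spread, with ratios of 1.64 in replicate 1 and 1.04 in replicate 2. Mir19a and Mir19b-1 were not separated either, since Mir19a was the higher in replicate 1 (ratio 1.22) and the lower in replicate 2 (ratio 0.927). Mir17 exceeded Mir19a by 640-fold in replicate 1 and 699-fold in replicate 2, and Mir19b-1 by 780-fold and 648-fold. When counts were divided by hairpin length, a choice made after the data were seen, the mean log2 ratio of Mir20a to Mir17 went from -0.79 to -1.14.

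The 6 hairpins together held 1005631 reads in replicate 1 and 302008 in replicate 2, which is 3.64% and 2.01% of the gene counts. Equal output would give each hairpin 16.7% of this sum. Mir17 gave 49.2% (exact Clopper-Pearson 95% interval 49.1 to 49.3) in replicate 1 and 52.8% (52.6 to 53.0) in replicate 2. Mir20a gave 33.1% (33.0 to 33.2) and 26.3% (26.1 to 26.4). These were the 2 hairpins above an equal share in both libraries.

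Mir92-1 gave 10.9% and 10.6% of the cluster, a difference of -0.307 percentage points, the smallest among the 4 abundant hairpins. Mir18 gave 6.65% (6.61 to 6.70) in replicate 1 and 10.2% (10.1 to 10.3) in replicate 2, while the difference for Mir20a was -6.80 percentage points. Mir19a gave 0.0770% (0.0716 to 0.0826) and 0.0755% (0.0660 to 0.0860), and Mir19b-1 0.0631% (0.0583 to 0.0683) and 0.0815% (0.0716 to 0.0923). For Mir19a the intervals overlapped. All such intervals are computed within 1 library and describe counting error alone, not the spread between preparations. Because PCR copies of a molecule were not marked, the intervals may be too narrow even for counting error.

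Summed by seed, the output was also uneven. The miR-17 seed, on 2 of 6 hairpins, held 82.3% of the cluster's reads in replicate 1 and 79.0% in replicate 2, a mean of 80.7% ± 2.31 (SD, n = 2). The miR-19 seed is also on 2 of 6 hairpins and held 0.140% and 0.157%, a mean of 0.149% ± 0.0119 (SD, n = 2), so the miR-17 hairpins exceeded it 587-fold and 504-fold. The single miR-92 hairpin held 10.7% ± 0.217 and the single miR-18 hairpin 8.43% ± 2.51 (SD, n = 2). The ratio within the miR-17 pair was 1.49 and 2.01 and within the miR-19 pair 1.22 and 0.927. Hairpins of different seeds could lie as close, since Mir92-1 over Mir18 was 1.64 and 1.04.

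**Figure D2:**
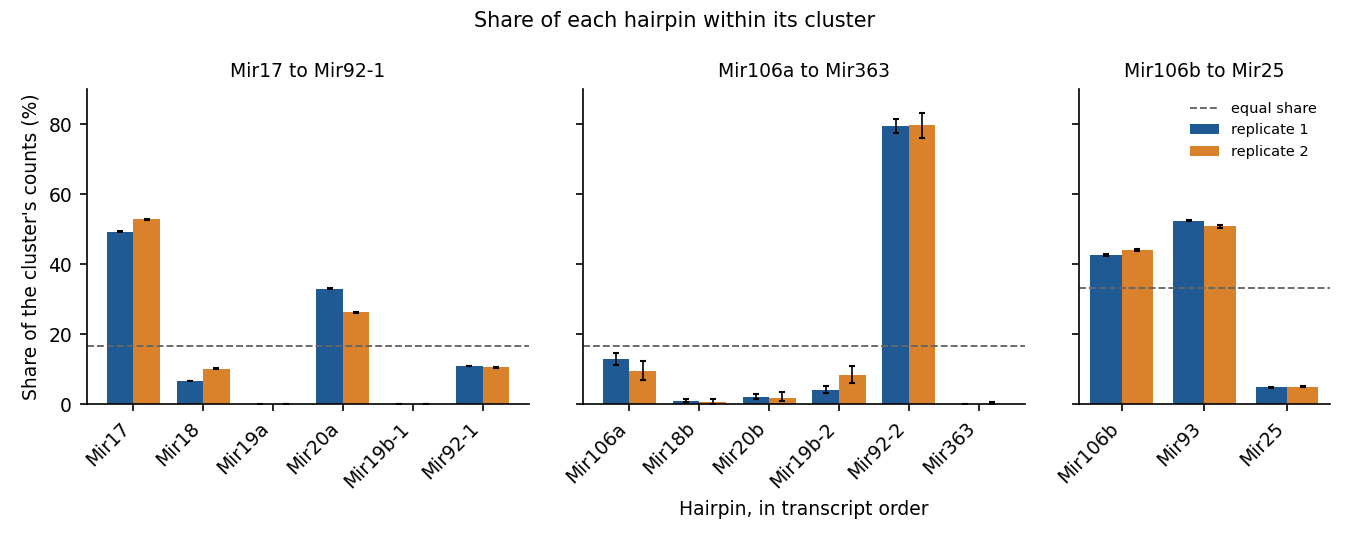
Share of each hairpin in the summed counts of its cluster (%), in transcript order, for the Mir17hg cluster and its 2 paralogous clusters. Bars are replicates, error bars are exact 95% counting intervals and the dashed line is an equal share. Mir17 and Mir20a lead on Mir17hg, Mir92-2 takes 79.6% and 79.8% of the Mir106a cluster, and Mir93 and Mir106b lead the third cluster.

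Copy number bears on how the counts can be read. A read that fits 2 places in the genome carries no information on its locus, and such reads have a row of their own in the tables, with 18382947 reads in replicate 1 and 5599235 in replicate 2, or 18.3 and 18.5 for each read counted on the 6 hairpins. How many of them came from miR-19b or miR-92a was not tested, as the tables give no sequences. If they were left out of the gene counts, Mir19b-1 and Mir92-1 are understated, and their levels are uncertain. The hairpins below, from RefSeq, show how far each copy pair can be told apart, with the longest shared stretch in capitals.
Mir92-1: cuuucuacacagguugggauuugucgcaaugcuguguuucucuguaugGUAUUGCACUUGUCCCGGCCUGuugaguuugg
Mir92-2: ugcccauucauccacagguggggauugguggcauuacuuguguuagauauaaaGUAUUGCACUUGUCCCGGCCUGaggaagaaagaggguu
Mir19b-1: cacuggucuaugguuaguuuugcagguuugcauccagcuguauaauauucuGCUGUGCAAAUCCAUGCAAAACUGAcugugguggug
Mir19b-2: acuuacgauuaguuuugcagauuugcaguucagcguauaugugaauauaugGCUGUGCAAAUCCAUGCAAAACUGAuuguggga

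The Mir92 pair shares 22 bases, that is the 21-base mature strand and 1 base before it. Counted from the first mature base, the pair first differs on the 3′ side by U22A, directly after the mature end. The Mir19b pair shares 25 bases, the 23-base mature strand and 2 bases before it, and first differs on the 3′ side by C24U. A read of either mature strand in its annotated form therefore fits both copies, and a read that runs 1 base past its 3′ end matches 1 copy exactly.

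The part of copy number in the levels was not tested. Mir19a, which has no exact copy in any annotated hairpin and whose longest stretch shared with another hairpin is 13 bases, was not separated in level from Mir19b-1, which has a copy. The 4 hairpins with no copy held 89.0% of the cluster's reads in replicate 1 and 89.3% in replicate 2. Among those 4 alone, Mir17 and Mir20a had 90.5% ± 2.80 of the reads and Mir19a 0.0855% ± 0.00136 (SD, n = 2). The search for copies covered annotated hairpins and transcripts, not the whole genome.

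The part of GC content and of folding energy in the levels was not tested. GC content of the mature strand was 47.8% in miR-17, 43.5% in miR-18a, 34.8% in miR-19a, 39.1% in both miR-20a and miR-19b, and 57.1% in miR-92a. The computed minimum free energy of the hairpin was -36.7 kcal/mol for Mir17, -29.2 for Mir18 and -38.7 for Mir19a. It was -38.6 for Mir20a, -37.8 for Mir19b-1 and -34.0 for Mir92-1. These are descriptions of 6 hairpins, and how ligation, amplification, processing and stability enter the counts was not tested.

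The polycistron has 2 paralogous clusters in the mouse genome with hairpins of the same seeds. Mir106a, Mir18b, Mir20b, Mir19b-2, Mir92-2 and Mir363 lie on chromosome X, and Mir106b, Mir93 and Mir25 lie in Mcm7 on chromosome 5. Of the reads on all 3 clusters, the Mir17hg hairpins had 77.7% in replicate 1 and 78.8% in replicate 2. Their sum was 654-fold and 570-fold above that of the chromosome X cluster, which had 1538 and 530 reads, and 3.50-fold and 3.74-fold above that of the Mcm7 cluster.

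As counted, the internal order differed between Mir17hg and the chromosome X cluster. There the miR-92 hairpin Mir92-2 was 6.12-fold and 8.46-fold above the first hairpin Mir106a, whereas on Mir17hg the corresponding Mir92-1 was 4.52-fold and 4.98-fold below Mir17. Mir92-2 took 79.6% (77.5 to 81.6) of its cluster in replicate 1 and 79.8% (76.1 to 83.1) in replicate 2, against 10.9% and 10.6% for Mir92-1. This contrast rests on 200 and 50 reads for Mir106a, and Mir92-2 shares its mature strand with Mir92-1. Mir92-2 had 1224 and 423 reads against 109609 and 31991 for Mir92-1. How many of the Mir92-2 reads came from Mir92-1 was not tested. In the Mcm7 cluster the miR-92 hairpin Mir25 was low, at 8.74-fold and 8.64-fold below Mir106b, the same direction as on Mir17hg.

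Mir17, Mir18, Mir20a, Mir19b-1 and Mir92-1 were set against a counterpart, and each was the higher in both libraries. Mir17 exceeded Mir106a, from which its mature strand differs by U10A alone, by 2476-fold and 3188-fold. Mir20a exceeded Mir20b, with 34 and 10 reads, by 9779-fold and 7931-fold. Mir18 had 66917 and 30836 reads against 15 and 3 for Mir18b. The excess was smaller for the pairs with a shared mature strand, at 89.5-fold and 75.6-fold for Mir92-1 over Mir92-2 and 9.77-fold and 5.59-fold for Mir19b-1 over Mir19b-2. A read of a shared mature strand fits both copies, so the ratios of these pairs are not directly comparable with the others. The difference between these excesses has no replicate test beyond the 2 values each. Mir17 exceeded Mir106b in the Mcm7 cluster by 4.03-fold and 4.48-fold and Mir20a exceeded Mir93 by 2.20-fold and 1.93-fold. The ratio that differed least between the libraries was that of Mir92-1, 7.80-fold and 7.76-fold above Mir25.

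Over all loci, the Mir17hg hairpins supplied most gene-strand counts of each of their seeds. If reads that fit more than 1 place were left out, the miR-92 and miR-19 shares cover only reads that could be placed. For the miR-17 seed, on 7 annotated genes of which 6 had a read, the family held 39823 CPM in replicate 1 and 20988 CPM in replicate 2. Mir17 and Mir20a supplied 75.1% (75.1 to 75.2) and 75.7% (75.5 to 75.8) of this, and Mir93 and Mir106b nearly all of the rest, at 13.3% ± 0.494 and 11.2% ± 0.0998 (SD, n = 2). Mir6383, which carries the same seed, had no read, which allows up to 0.108 CPM in replicate 1 and 0.2 CPM in replicate 2.

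For the miR-92 seed, on 7 genes of which 5 had a read, the family held 4881 and 2597 CPM. Mir92-1 supplied 81.2% (81.0 to 81.4) and 82.0% (81.6 to 82.3), followed by Mir25 with 10.5% ± 0.108 and Mir32 with 6.40% ± 0.715, while Mir92-2 gave 0.995% ± 0.125 and Mir92b 0.539% ± 0.0709 (SD, n = 2). As Mir92-1 and Mir92-2 share a mature strand, their parts of the family are uncertain beyond the counting intervals. Mir363 and Mir367 had no read in either library. For the miR-18 seed, Mir18 supplied all but 15 reads in replicate 1 and 3 in replicate 2.

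For the miR-19 seed, the whole family held 53.3 CPM in replicate 1 and 34.5 CPM in replicate 2. Mir19a and Mir19b-1 supplied 95.6% (94.4 to 96.6) and 91.5% (88.8 to 93.8) and Mir19b-2 the rest, with 65 and 44 reads. All 3 loci had few reads, and of them Mir19a alone is free of an exact copy. Within the chromosome X cluster, where every hairpin had few reads, Mir19b-2 held 4.23% and 8.30% of the counts. That was above Mir20b with 2.21% and 1.89% and Mir18b with 0.975% and 0.566%, and above Mir363, which had no read. It was below Mir106a with 13.0% and 9.43% and far below Mir92-2 with 79.6% and 79.8%.

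**Figure D3:**
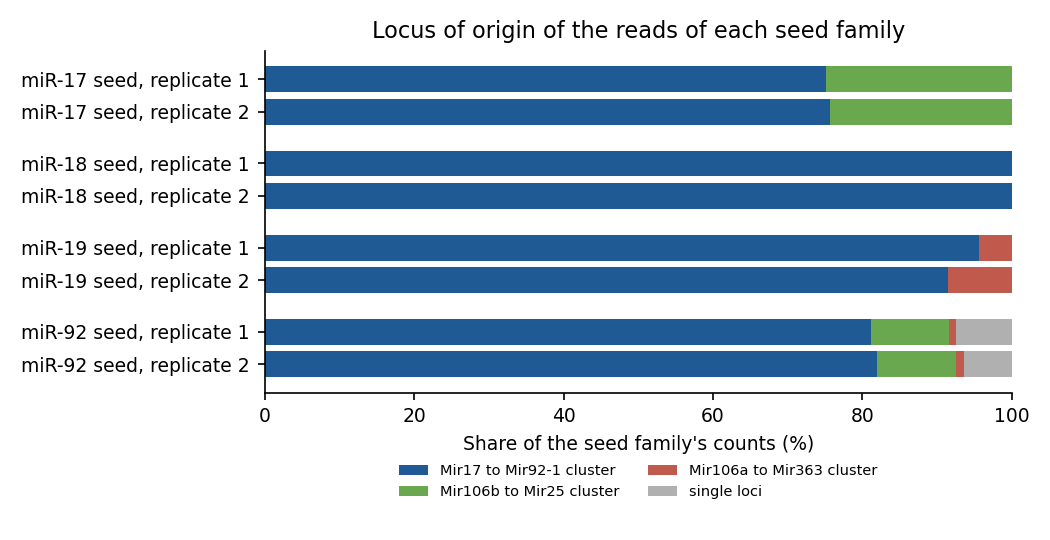
Share of the counts of each seed family (%) by locus of origin, with 1 bar per replicate. The Mir17hg hairpins supply from 75.1% of the miR-17 seed to nearly all of the miR-18 seed, and the Mcm7 cluster is the main other source for the miR-17 and miR-92 seeds.

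The ratios of the hairpins to Mir17 were then compared between the 2 libraries, with intervals for counting error alone. Relative to Mir17 in the same library, the log2 ratio of Mir18 was 0.52 higher in replicate 2 than in replicate 1 (counting 95% interval 0.50 to 0.54) and that of Mir20a was lower, with a difference of -0.43 (-0.45 to -0.42). Mir92-1 differed by -0.14 (-0.16 to -0.12), Mir19a by -0.13 (-0.34 to 0.09) and Mir19b-1 by 0.27 (0.05 to 0.48). These differences need no scaling between libraries. From Mir20a to Mir18, the ends of this range, the libraries differed by 0.95 on the log2 scale, or 1.93-fold. Pair by pair, the log2 ratio of Mir17 over Mir20a differed by 0.43 between the libraries, below its mean of 0.79. That of Mir18 over Mir19a differed by 0.65, below its mean of 6.76.

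Across all genes, an exact binomial test of each pair of counts after trimmed-mean (TMM) scaling, with Benjamini-Hochberg adjustment over 556 genes, compared the libraries and not conditions. It called 41.5% of the genes, with 24.6% higher and 16.9% lower in replicate 2. Of the 6 hairpins it called 4, with Mir17, Mir18 and Mir19b-1 higher in replicate 2 and Mir20a lower. Since the test counts reads alone, a hairpin with many reads can pass it on a small difference. The median TMM-scaled log2 ratio was 0.08 over the 6 hairpins and 0.09 over all genes tested.

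After TMM scaling, Mir18 stood at 1772 and 2801 CPM in replicates 1 and 2, a log2 ratio of 0.66 (counting SE 0.01). Mir20a stood at 8806 and 7204 CPM, a log2 ratio of -0.29 (counting SE 0.006). Mir17 had a log2 ratio of 0.14, and Mir19b-1, with fewer reads, one of 0.41 (counting SE 0.11, adjusted p = 0.00065 by the exact binomial test). Mir19a and Mir92-1 did not pass the test, with log2 ratios of 0.02 (adjusted p = 0.963, exact binomial test) and 0.00 (adjusted p = 0.954, exact binomial test). Across all genes edgeR estimated a common coefficient of variation of 34.4%, which implies an SD of 0.68 for the log2 ratio of 1 gene. The TMM-scaled ratios of all 6 hairpins lay within that SD. Among 138 genes with a mean of at least 100 CPM, the SD of the log2 ratio was 0.69. Their median absolute log2 ratio was 0.29, which Mir18 exceeded. Fewer cells that hold a miRNA and less of it per cell cannot be told apart in such libraries.

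The direction of these differences rests on the scaling, as TMM and library totals lie 0.90 apart on the log2 scale. Per library total, as in the levels above, 59.4% of the genes were called and all 6 hairpins were called lower in replicate 2, where 54.7% of all genes tested were called lower and 4.68% higher, and the summed cluster was 1.81-fold lower. The share of Mir21a differed between these totals, at 23.1% and 53.5%. Per 1000000 counts on genes other than Mir21a, the summed level of the cluster was 45244 ± 2834 (SD, n = 2), a smaller relative spread than the 28227 ± 11494 CPM per library total. With DESeq2 size factors 41.5% of the genes were called, and of the hairpins the same 3 were called higher while Mir92-1 joined Mir20a among those called lower. The summed cluster had a TMM-scaled log2 ratio of 0.04, and Mir222, Mir183 and Mir423 were the 3 closest to it among 130 genes with a mean of at least 100 CPM. This likeness is 1 number over 2 samples, and 29 of the 130 genes lay within 0.1 of the cluster.

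**Figure D4:**
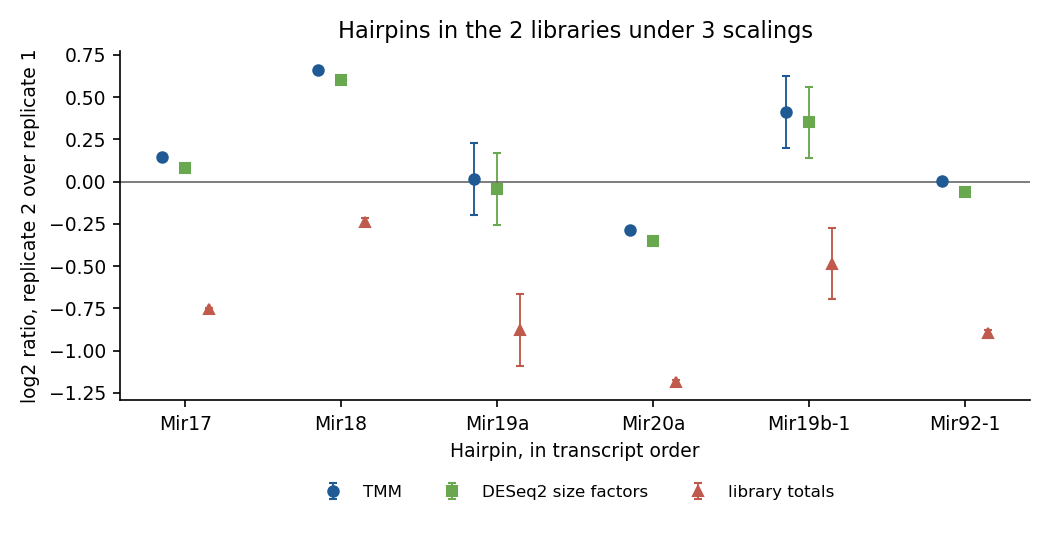
Log2 ratio of replicate 2 over replicate 1 for each hairpin under 3 scalings, with 95% counting intervals. A change of scaling shifts all 6 hairpins together, so all are below 0 per library total, while the distance of 0.95 from Mir20a to Mir18 is the same under each scaling.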

How the data were processed

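Small RNA from C2C12 was measured in 2 libraries of a single group. The authors deposited whole-number read counts per miRNA gene, on mm10 with annotation release M21 per the deposited readme files. Columns have no header, and were taken as either strand, gene strand and opposite strand from their totals and layout. Per the labels, RNA was under 30 nucleotides and an adapter trimming protocol applied. The alignment software is not given in the sources used here. Rows for reads on no gene, 49.7% of replicate 1 and 38.8% of replicate 2, stayed out of totals and tests.

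From these deposited counts, all 2202 identifiers were matched to GENCODE symbols, and gene-strand counts were divided by gene totals to give CPM. Seeds came from RefSeq mature sequences. Folding energies came from ViennaRNA 2.7.2. Hairpins next to each other in level were taken as separate where their log2 ratio had the same sign in both libraries and a mean above the gap between its values. Libraries were compared over genes with at least 10 counts, with edgeR 4.0.16 TMM factors, a prior count of 0.5 and a two-sided exact binomial test (scipy 1.17.1) at an adjusted p of 0.05, which was tested on simulated data. Scaling by DESeq2 1.42.0, library totals, other filters, other denominators and the either-strand column were the alternatives. The named genes are the 6 hairpins, their paralogs and seed relatives, and the 3 genes closest to the cluster in library ratio. The hairpins, lists and tests were chosen with earlier results of these data known.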

Additional observations from a re-analysis of the deposited data

Results flagged for a closer look

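Reads outside the gene-strand counts are given here as totals over each library. No control library was analysed, so nothing sets a scale for them. Reads mapped to several places numbered 18382947 in replicate 1 and 5599235 in replicate 2, and how many of them belong to the mature strands of Mir19b-1 and Mir92-1 was not tested. The opposite strand of miRNA genes held 843574 reads of replicate 1 and 244513 of replicate 2, none of them on the 6 hairpins or on the 9 hairpins of the paralogous clusters.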

How the results depend on the processing

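No paired comparison of groups was possible because there is a single group, while ratios between hairpins were taken within each library. Of 144 recomputed values, 117 stayed within the limits set for them, 19 moved by more than the SD of the replicates (for the number of called genes, by more than 1.5 times) and 8 reversed. Counting reads on either strand moved no value beyond these limits. It could not change the cluster shares or the ratios to Mir17, since no opposite-strand read lay on the hairpins. The 117 include these values and all those from leaving out a replicate. Both kinds were bound to stay within the limits, so the 117 is not a measure of stability. Leaving out a replicate of 2 cannot move a mean by more than the SD, so those values only give the range, which is 20100 to 36354 CPM for the summed level and 5278 (without replicate 1) to 12019 CPM for Mir20a, against a mean of 8649. Per 1000000 counts on genes other than Mir21a, the summed level was 45244 CPM, with Mir17 at 23045, Mir20a at 13488, Mir92-1 at 4865, Mir18 at 3780, Mir19a at 34.5 and Mir19b-1 at 32.5. Per 1000000 of all reads it was 15282, with Mir17 at 7743, Mir92-1 at 1647, Mir18 at 1235, Mir19a at 11.7 and Mir19b-1 at 10.8. Over hairpins with a unique mature strand, the shares of Mir17, of Mir17 with Mir20a, and of Mir19a rose to 57.2%, 90.5% and 0.0855%, by construction. Without copies, a choice made after the data were seen, Mir19a is the whole miR-19 family at 100%. Per base of hairpin, also chosen afterwards, the log2 ratio of Mir20a to Mir17 was -1.14.

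Library totals reversed the log2 ratios of replicate 2 over replicate 1 to -0.75 for Mir17, -0.24 for Mir18, -0.88 for Mir19a, -0.49 for Mir19b-1 and -0.90 for Mir92-1. The ratio of Mir19a was 0.02 with TMM and changed sign without being called, and is counted among the 117, with DESeq2 size factors (-0.045), without a count filter (-0.026) and at a minimum of 50 counts (-0.019). That of Mir92-1, near 0 with TMM, was -0.060 with DESeq2 size factors, -0.041 without a count filter and -0.035 at a minimum of 50 counts. Genes called and at least 2-fold apart numbered 62, against 231 called at any size. Depth limits Mir19a and Mir19b-1, with at most 774 reads, and the chromosome X hairpins.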
